A study of Mus musculus with 2 samples.

Results

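Interferon-stimulated T cells were T cells in which 4 of the most strongly interferon-induced genes, Ifit1, Ifit3, Ifit3b and Rsad2 (here called the selecting genes), together had at least 4 UMIs. A UMI (unique molecular identifier) is counted as 1 RNA molecule however often it was copied. T cells were cells with at least 2 UMIs of Cd3d, Cd3e and Cd3g together, which encode the CD3 chains of the T-cell receptor complex, and with no UMI of the B-cell gene Cd79a or the macrophage gene Csf1r. Of 25814 immune cells kept, 12289 were T cells, and 562 of these were interferon-stimulated, 380 under lenvatinib and 182 under combo. They were set against the 9924 T cells with 0 UMIs of the selecting genes, 5566 under lenvatinib and 4358 under combo. The selecting UMIs were measured in the same libraries as everything below, so differences between both kinds of T cell describe these libraries and were not tested.

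The cells came from liver tumors of adult male wild-type C57BL/6J mice, made by hydrodynamic tail vein injection of a MYC expression plasmid with the Sleeping Beauty transposase and a CRISPR plasmid against Trp53 (the Trp53KO/MYCOE model). All tumors had been treated with lenvatinib, an inhibitor of several receptor tyrosine kinases, until they were resistant. The mice then received either lenvatinib alone (the lenvatinib group) or lenvatinib with palbociclib, an inhibitor of the cell-cycle kinases CDK4 and CDK6 (the combo group). Live CD45+ cells, that is cells of the immune lineage, were sorted and profiled as 1 library per group by droplet-based 3' scRNA sequencing. The number of mice behind each library is not given in the sources used here. With 1 library per group there is no replicate, no p-value is given, and treatment cannot be told apart from library or batch. All intervals are exact 95% intervals that cover counting error only.

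Type I interferons signal through the receptor IFNAR and the kinases JAK1 and TYK2 to transcription factors that include STAT2 and IRF9. These bind a DNA motif called the interferon-stimulated response element, which contains repeats of GAAA, and switch on genes that block viral replication, sense viral RNA or tag proteins with the ubiquitin-like ISG15. Interferon gamma acts through a receptor of its own and drives guanylate-binding proteins, immunity-related GTPases and antigen presentation, and many genes respond to both kinds of interferon. T cells with this program have been described in tumors as a state that is found within CD4 and CD8 T cells rather than as a separate lineage.

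The libraries held 98107503 UMIs in 14509 barcodes under lenvatinib and 93583402 UMIs in 11989 barcodes under combo. Interferon-stimulated T cells had a median of 6791 UMIs under lenvatinib and 7516.5 under combo, against 6182 and 5570 in T cells with 0 selecting UMIs. Both libraries shared 49 barcodes, none of which was an interferon-stimulated T cell. Scrublet called 17 (4.47%) of the interferon-stimulated T cells under lenvatinib and 9 (4.95%) under combo as doublets, and these were kept. Among T cells with 0 selecting UMIs it called 4.56% under lenvatinib and 1.95% under combo, so the shares differed mainly under combo. Isg15, which marks this state and was not used to select the cells, had a UMI in 340 of 380 cells under lenvatinib (89.5%, 85.9 to 92.4) and in 148 of 182 under combo (81.3%, 74.9 to 86.7). The label was therefore kept.

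A share of these cells also carried neutrophil RNA, and it differed between the libraries. Neutrophil signal, a criterion set after the data had been seen, means at least 1% of a cell's UMIs from S100a8 and S100a9, the calprotectin genes, or at least 2 UMIs of Csf3r, the receptor for the neutrophil growth factor G-CSF. It was present in 11 (2.89%, 1.45 to 5.12) of the interferon-stimulated T cells under lenvatinib and in 38 (20.9%, 15.2 to 27.5) under combo. Among T cells with 0 selecting UMIs it was present in 1.10% and 3.37%. The 38 combo cells had a median of 16480 UMIs, an S100a8 level of 120304 CPM (a gene's UMIs divided by all UMIs of the summed cells, scaled to the same total for every group) and a Cd3e level of 118 CPM, against 352 CPM of Cd3e in the other 144. Scrublet called 7 (18.4%) of the 38 as doublets. Summed over the whole list of 7 neutrophil markers, the level was 1358 CPM in interferon-stimulated T cells and 1571 CPM in T cells with 0 selecting UMIs under lenvatinib, and 102343 and 16090 CPM under combo. Without the cells with neutrophil signal the sums were 268 and 282 CPM under lenvatinib and 1714 and 1731 CPM under combo. Among markers of other cells, Lyz2 was the only monocyte and macrophage marker to reach a mean of 25 CPM in each library, and no dendritic cell marker did. The hepatocyte, red cell and platelet list summed to 2011 CPM in interferon-stimulated T cells under lenvatinib, where 2 cells held at least 100 hemoglobin UMIs, against 35.7 CPM in T cells with 0 selecting UMIs. The part of the cells with neutrophil signal in each combo result was not tested, and values or log2 ratios without these cells are given with the combo results. T cells with 0 selecting UMIs were taken without them too.

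The 4 selecting genes and Isg15 are shown by the part of their promoter that holds the response element, because their shared induction defines the cells. The stretches lie in the 250 bases before the annotated gene start, are written 5' to 3' on the strand of the gene, and come from RefSeq on build GRCm38.p6, the assembly that mm10 denotes. Capitals mark every match to GAAA, any 2 bases and GAAA, or to its reverse complement TTTC, any 2 bases and TTTC, and overlapping matches are merged into a run of capitals.
Ifit1 at chr19:34640775-34640823, plus strand: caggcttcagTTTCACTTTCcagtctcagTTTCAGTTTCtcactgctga
Ifit3 at chr19:34583363-34583426, plus strand: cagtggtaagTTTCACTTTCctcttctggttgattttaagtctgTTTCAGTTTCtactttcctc
Rsad2 at chr12:26456553-26456582, minus strand: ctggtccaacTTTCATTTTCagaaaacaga
Isg15 at chr4:156200865-156200906, minus strand: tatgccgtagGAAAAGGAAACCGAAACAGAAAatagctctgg
Cxcl10 at chr5:92349083-92349112, minus strand: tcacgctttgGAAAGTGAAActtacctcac
Ifit1 held 2 matches, at 104 and 85 bases before its start, and Isg15 held 3 overlapping ones. The stretch of Ifit3b at chr19:34607759-34607822 was identical in its 64 bases to that of Ifit3. Cxcl10, which encodes a chemokine that attracts T cells through CXCR3, is shown because it had the highest level among the leading genes.

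All 4 selecting genes held the motif in this window, whereas 936 (3.46%) of 27025 genes with a promoter entry did. Among antiviral effector genes beyond the selecting ones it was found in 16 of 48 (33.3%), and among guanylate-binding proteins and immunity-related GTPases in 9 of 10. None of 10 naive and stem-like genes, 8 exhaustion genes, 11 cell cycle genes or 7 T-cell identity genes held it. Lists with little difference in level held it too, in 3 of 16 MHC class I presentation genes (18.8%) and 2 of 13 cytotoxic genes (15.4%). It was also found in 11 of 20 interferon ligand genes (55%). Only 1 gene of that list, Ifng, reached a mean of 25 CPM in each library, so a difference in level was hardly measured there. Of the leading genes named below, Isg15, Cxcl10, Slfn5 and Ifit1bl1 held a match and Cmpk2, Ifit2, Oasl2 and Isg20 did not, while Usp18 and Ifi204 had no promoter entry. A match shows the letters and not binding, and the lists were chosen with earlier results of these data known.

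The selecting genes encode proteins that act against viral RNA. Ifit1 (ENSMUSG00000034459, chr19:34640871-34650009), Ifit3 (ENSMUSG00000074896, chr19:34583531-34588731) and Ifit3b (ENSMUSG00000062488, chr19:34607970-34613401) encode RNA-binding IFIT proteins and lie near each other, and Rsad2 (ENSMUSG00000020641, chr12:26442746-26456452) encodes viperin, an enzyme that makes a chain-terminating nucleotide. Their levels in interferon-stimulated T cells are fixed by the selection and describe only its makeup. Ifit3 was at 420 CPM under lenvatinib and 402 CPM under combo, Ifit1 at 390 and 382 CPM, Rsad2 at 289 and 405 CPM, and Ifit3b at 62.2 and 89.9 CPM. The Ifit3 transcript matched Ifit3b at 95.3% of its bases. At the 3' end, which the assay reads, 283 of the last 300 bases of Ifit3 matched Ifit3b. Of the last 300 bases of Ifit3b, only 14 matched Ifit3. How reads divide between both genes was not tested and is uncertain for the shared stretches, and only their sum enters the selection.

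Most cells were selected on more than 1 gene. All 4 selecting genes had a UMI in 80 cells under lenvatinib and 43 under combo, 3 genes in 161 and 59, 2 genes in 115 and 59, and a lone gene in 24 and 21. Selecting UMIs per cell ranged from 4 to 62 under lenvatinib and from 4 to 103 under combo, with a median of 7 in both. Cells just inside and just outside the limit both held interferon-induced RNA. The 79 lenvatinib cells with 4 selecting UMIs had 326 CPM of Isg15 and the 109 cells with 3 had 267 CPM, and under combo the 34 cells with 4 had 215 CPM and the 58 cells with 3 had 172 CPM. Irf7, a factor of the interferon response, was at 130 and 116 CPM in those lenvatinib cells and at 143 and 122 CPM in those combo cells. Cxcl10 lay further apart, at 358 and 208 CPM under lenvatinib and at 303 and 224 CPM under combo.

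**Figure D1:**
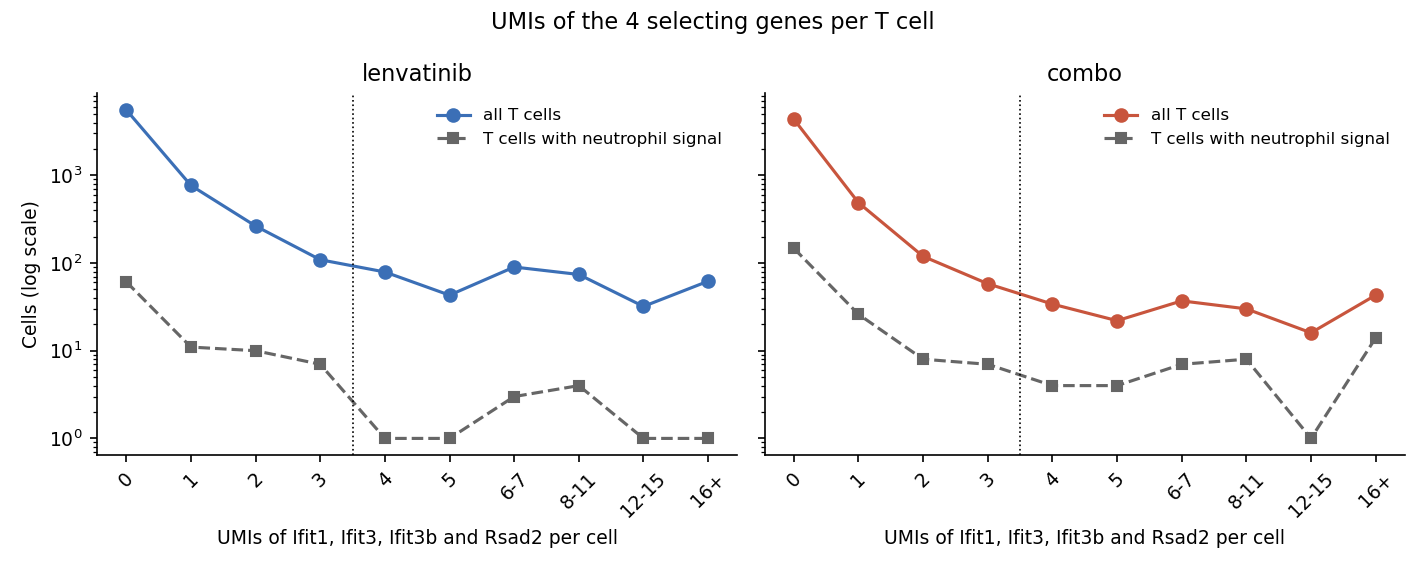
Number of T cells (log scale) by the number of UMIs of the 4 selecting genes, for all T cells (circles) and those with neutrophil signal (squares), in each library; the dotted line marks the limit of 4 UMIs. Under combo 14 of the 43 cells with 16 or more selecting UMIs carried neutrophil signal, and under lenvatinib 1 of 62 did.

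The leading genes outside the selection were ubiquitin-like modification genes and antiviral effectors, named here where both libraries shared them. Isg15 (ENSMUSG00000035692, chr4:156199424-156200818), a ubiquitin-like protein that is joined to other proteins, was at 573 CPM (546 to 600) in interferon-stimulated T cells and 39.4 CPM (37.5 to 41.4) in T cells with 0 selecting UMIs under lenvatinib, a log2 ratio of 3.86. Under combo it was at 407 CPM (378 to 438) and 31.3 CPM (29.3 to 33.4), a log2 ratio of 3.70, and without neutrophil signal at 475 and 32.1 CPM. The intervals of both kinds of cell lay far apart in each library. Per cell, Isg15 had a median of 3 UMIs in both libraries, with a highest value of 29 under lenvatinib and 18 under combo. When every cell was thinned to 2000 UMIs, 61.4% of interferon-stimulated T cells had an Isg15 UMI under lenvatinib and 52.5% under combo, against 7.07% and 6.05% of T cells with 0 selecting UMIs.

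Usp18 (ENSMUSG00000030107, chr6:121245906-121270917), the protease that removes ISG15 and dampens IFNAR signaling, was at 213 and 12.2 CPM under lenvatinib (log2 ratio 4.12) and at 140 and 6.67 CPM under combo (4.39). Cmpk2 (ENSMUSG00000020638, chr12:26469204-26479837), a nucleotide kinase that lies beside Rsad2 in the genome, was at 133 and 6.28 CPM (4.41) and at 120 and 4.81 CPM (4.64). Ifit2, another IFIT protein, was at 162 and 13.2 CPM (3.62) and at 133 and 7.24 CPM (4.20). These 3 genes were more than 10-fold higher in interferon-stimulated T cells of each library. Slfn5, of the Schlafen family, was at 387 and 24.1 CPM (4.01) under lenvatinib and at 187 and 18.8 CPM (3.31) under combo. Isg20, an RNA exonuclease, was at 171 and 20.5 CPM (3.06) and at 168 and 19.1 CPM (3.14). Oasl2, an OAS-like protein, was at 90.9 and 8.01 CPM (3.51) and at 93.3 and 6.33 CPM (3.88), Ifi204, a DNA-binding PYHIN protein, at 62.9 and 2.83 CPM (4.47) and at 62.6 and 4.13 CPM (3.92), and Ifit1bl1 at 129 and 9.68 CPM (3.73) and at 75.4 and 8.39 CPM (3.17). Under combo without neutrophil signal the log2 ratios were 4.62 for Usp18, 4.59 for Cmpk2, 4.51 for Ifit2, 3.53 for Slfn5, 3.32 for Isg20, 3.56 for Oasl2, 3.73 for Ifi204 and 3.48 for Ifit1bl1. With Cxcl10 and Isg15 these were the 10 genes with the largest ratios that both libraries shared. Ratios were ranked among genes with a mean of at least 25 CPM over both kinds of T cell in each library. All of the 10 but Cxcl10 and Isg15 lay below 25 CPM in T cells with 0 selecting UMIs of both libraries. Those genes reached the required mean only through the interferon-stimulated cells. Reads of Ifit, PYHIN, Schlafen, Oas and guanylate-binding genes may be divided uncertainly between close relatives.

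**Figure D2:**
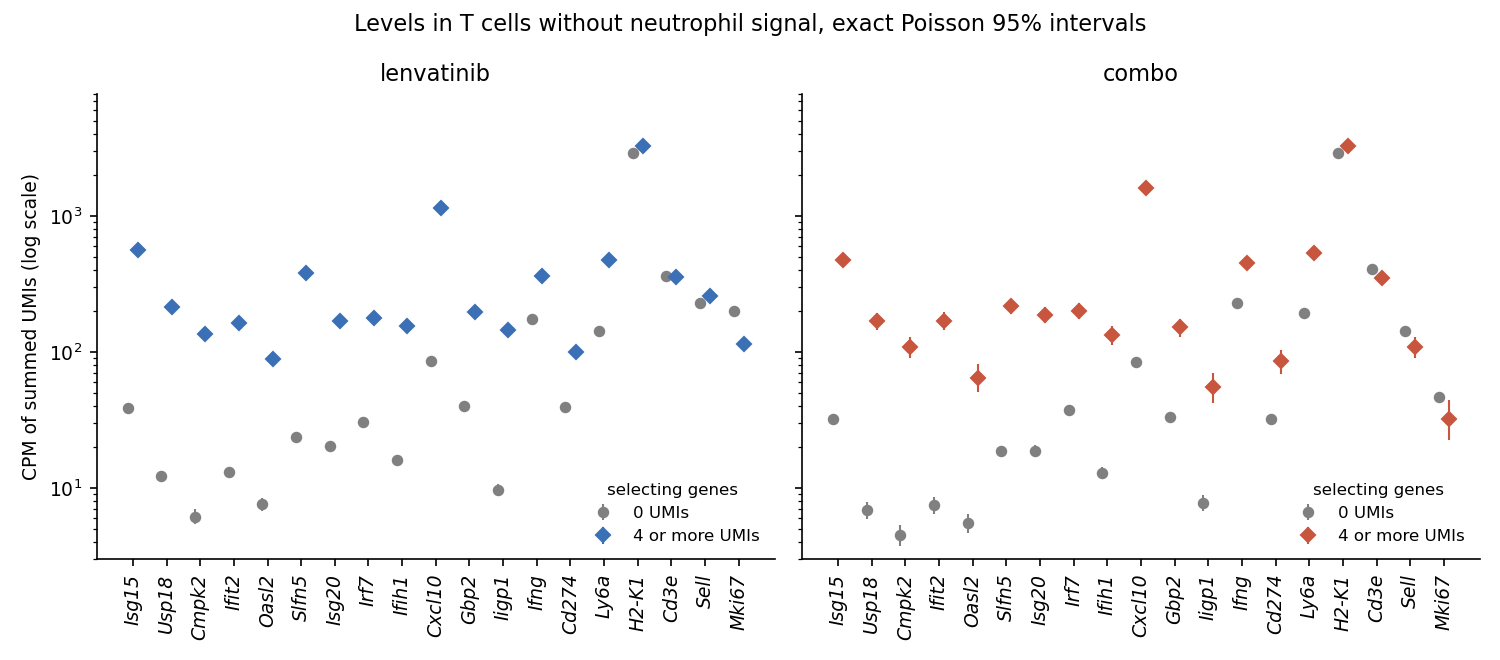
CPM of summed UMIs (log scale) for named genes in T cells without neutrophil signal, with 0 (circles) or 4 or more (diamonds) selecting UMIs, in each library; bars are exact Poisson 95% intervals. Isg15 to Ly6a lie higher in the interferon-stimulated cells of both libraries, H2-K1 and Cd3e lie close together, and Mki67 lies lower.

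Across the whole list of 59 measured antiviral effectors, 49 reached a mean of 25 CPM over both kinds of T cell in each library. Of these, 45 under lenvatinib and 44 under combo were at least 2-fold higher in interferon-stimulated T cells and none was 2-fold lower. The background over all 4227 genes at that level was 2.96% higher and 0.118% lower under lenvatinib, and 3.81% higher and 0.426% lower under combo. The median log2 ratio of the list was 2.33 under lenvatinib and 2.14 under combo, against -0.08 and -0.21 over all genes. The level had been reached only through the interferon-stimulated cells by 14 of the 49 genes under lenvatinib and 20 under combo. Over the 58 genes of the list with any UMI, all 58 had a positive ratio in each library, with medians of 2.42 and 2.26, and Trex1 had none.

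Without neutrophil signal the list gave 44 of 48 genes at least 2-fold higher under lenvatinib and 45 of 48 under combo, with medians of 2.29 and 2.25. The background then was 2.83% higher and 0.114% lower under lenvatinib, and 2.99% higher and 0.206% lower under combo. The kinase Eif2ak2 (PKR), which stops translation on double-stranded RNA, was at 127 and 20.8 CPM under lenvatinib and 82.7 and 14.6 CPM under combo. Zbp1, a sensor of Z-form nucleic acid, was at 267 and 48.3 CPM and at 167 and 35.0 CPM. Bst2 (tetherin), which holds budding virus at the cell surface, was at 425 and 115 CPM and at 277 and 101 CPM. These effectors were already measurable in T cells with 0 selecting UMIs. The smallest ratios in the list belonged to genes with high levels in all T cells, such as Ly6c2, at 1334 and 918 CPM under lenvatinib and 1008 and 681 CPM under combo, and Shisa5, at 1125 and 730 CPM and at 735 and 618 CPM. Combo log2 ratios without neutrophil signal were 2.65 for Eif2ak2, 2.50 for Zbp1, 1.85 for Bst2, 0.64 for Ly6c2 and 0.62 for Shisa5.

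Most cells expressed many of these genes at the same time. The number of the 59 effectors with a UMI per interferon-stimulated T cell ran from 7 to 52 with a median of 35 under lenvatinib and from 6 to 49 with a median of 31.5 under combo. T cells with 0 selecting UMIs had medians of 13 and 11 and highest values of 40 and 42, so both distributions overlapped. After thinning to 2000 UMIs the medians were 18 and 14 in interferon-stimulated T cells and 6 and 5 in the others. Only 17 (4.47%) of the interferon-stimulated T cells under lenvatinib and 11 (6.04%) under combo had no UMI of Isg15, Usp18, Ifit2, Cmpk2 and Oasl2, against 65.3% and 73.8% of T cells with 0 selecting UMIs.

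Among interferon signaling genes, Irf7, Stat2 and Irf9 were higher, and the receptor chains and JAK kinases named here were not past 2-fold. Irf7, the factor that amplifies type I interferon production, was at 178 and 30.9 CPM under lenvatinib (log2 ratio 2.53) and at 183 and 37.8 CPM under combo (2.28). Stat2, a factor downstream of IFNAR, was at 85.8 and 17.6 CPM (2.29) and at 60.9 and 12.5 CPM (2.29). Irf9, its partner, was at 92.5 and 38.8 CPM (1.25) and at 81.0 and 28.7 CPM (1.50). These genes were past 2-fold in each library, with and without neutrophil signal. Stat2 lay below 25 CPM in T cells with 0 selecting UMIs of both libraries. It reached the required mean only through the interferon-stimulated cells. The receptor chain Ifnar1 was at 103 and 92.2 CPM under lenvatinib and at 71.0 and 74.4 CPM under combo, and Ifnar2 at 89.3 and 87.7 CPM and at 96.1 and 87.8 CPM. The interferon gamma receptor chain Ifngr1 was at 305 and 417 CPM and at 380 and 568 CPM, with log2 ratios of -0.45 and -0.58. The kinase Jak1 was at 425 and 485 CPM and at 294 and 407 CPM, and Tyk2 at 43.7 and 37.6 CPM and at 26.3 and 24.2 CPM. Socs1, the inhibitor of JAK kinases, had log2 ratios of 0.69 and 0.37. Under combo without neutrophil signal the log2 ratios were 2.43 for Irf7, 2.59 for Stat2, 1.61 for Irf9, 0.16 for Ifnar1, 0.20 for Ifnar2, -0.27 for Ifngr1 and Jak1, 0.41 for Tyk2 and 0.63 for Socs1.

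The cytosolic RNA sensors of the RIG-I family were also higher. Ifih1 (MDA5) was at 152 and 16.3 CPM under lenvatinib (3.23) and at 98.3 and 12.7 CPM under combo (2.95), and Ddx58 (RIG-I) at 234 and 58.6 CPM (2.00) and at 151 and 37.2 CPM (2.02). Dhx58 (LGP2), their regulator, was at 63.5 and 7.29 CPM and at 36.9 and 4.70 CPM. Their combo log2 ratios without neutrophil signal were 3.37 for Ifih1, 2.20 for Ddx58 and 3.15 for Dhx58. Ifih1 and Dhx58 lay below 25 CPM in T cells with 0 selecting UMIs of both libraries. Ifih1 reached the required mean only through the interferon-stimulated cells. The adaptor of the RNA sensors, Mavs, was at or under 10.1 CPM in every group with all cells. The DNA-sensing adaptor Tmem173 (STING) was at 62.5 and 49.4 CPM under lenvatinib and at 29.1 and 32.6 CPM under combo.

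RNA of the type I interferons themselves was almost absent from the T cells. Over 18 type I interferon genes, all cells kept held 35 UMIs under lenvatinib and 176 under combo, of which 27 and 102 were Ifnb1. The interferon-stimulated T cells held 7 and 3 of these UMIs, and the 5 Ifnb1 UMIs under lenvatinib came from 1 cell. All T cells held 11 and 9, monocytes and macrophages 14 and 15, and B cells 2 and 26. Gated natural killer cells and neutrophils held none. Most of the combo UMIs therefore lay in cells outside these gates. No type III interferon UMI was found in interferon-stimulated T cells of either library, which does not show that this RNA was absent. Ifng, the interferon that T cells make, was instead abundant, at 359 CPM (339 to 381) and 174 CPM (170 to 178) under lenvatinib, a log2 ratio of 1.04. Under combo it was at 298 CPM (274 to 325) and 220 CPM (215 to 225), and at 450 and 230 CPM without neutrophil signal, a log2 ratio of 0.97.

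Guanylate-binding proteins and immunity-related GTPases, which attack the vacuoles of intracellular pathogens and answer to interferon gamma as well as type I interferon, were higher as a group. Of 13 genes above 25 CPM, 13 were at least 2-fold higher under lenvatinib and 12 under combo (13 without neutrophil signal), although 6 of the 13 under lenvatinib and 7 under combo had reached that level only through the interferon-stimulated cells. All 17 genes with a UMI had positive ratios in both libraries, as had 10076 of 19590 genes with a UMI under lenvatinib and 10028 of 19108 under combo. The median log2 ratio was 2.29 under lenvatinib and 1.88 under combo, or 2.25 under combo without neutrophil signal. Igtp was at 236 and 40.5 CPM under lenvatinib and at 153 and 33.7 CPM under combo, and Gbp2 at 195 and 39.7 CPM and at 130 and 32.9 CPM. Both genes were over 3-fold higher in each library. Iigp1 was at 144 CPM (131 to 157) and 9.58 CPM under lenvatinib, and at 43.6 CPM (34.5 to 54.4) and 7.45 CPM under combo. Without neutrophil signal the combo log2 ratios were 2.50 for Igtp, 2.19 for Gbp2 and 2.83 for Iigp1.

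Cxcl10 (ENSMUSG00000034855, chr5:92346638-92348889) had 1127 CPM (1091 to 1165) in interferon-stimulated T cells and 85.8 CPM in the others under lenvatinib, and 1132 CPM (1083 to 1182) and 82.1 CPM under combo. Without neutrophil signal the combo level was 1617 CPM (1544 to 1693) against 84.4 CPM. A UMI was detected in 272 of the 380 lenvatinib cells and in 112 of the 182 combo cells, and the highest cells held 76 and 168 UMIs. Cxcl9, a related chemokine, had 3 and 12 UMIs in the interferon-stimulated T cells of each library. Cd274, which encodes the checkpoint ligand PD-L1, was at 99.5 and 40.4 CPM under lenvatinib (1.30) and at 64.8 and 31.4 CPM under combo (1.05, or 1.42 without neutrophil signal).

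MHC class I presentation genes differed little. Of 17 genes none was 2-fold higher in either library, and the median log2 ratio was 0.50 under lenvatinib and 0.19 under combo, or 0.47 under combo without neutrophil signal, where 1 gene, H2-T22, passed 2-fold at 1.03. All 17 ratios were positive under lenvatinib and under combo without neutrophil signal, and 10 of 17 under combo with all cells. The peptide-loading gene Tapbp was at 409 and 212 CPM under lenvatinib and at 243 and 153 CPM under combo. H2-K1, a class I heavy chain, was at 3267 and 2890 CPM and at 2533 and 2827 CPM, and its light chain B2m at 2626 and 2232 CPM and at 1922 and 1968 CPM. Combo log2 ratios without neutrophil signal were 0.94 for Tapbp, 0.18 for H2-K1 and 0.28 for B2m.

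**Figure D3:**
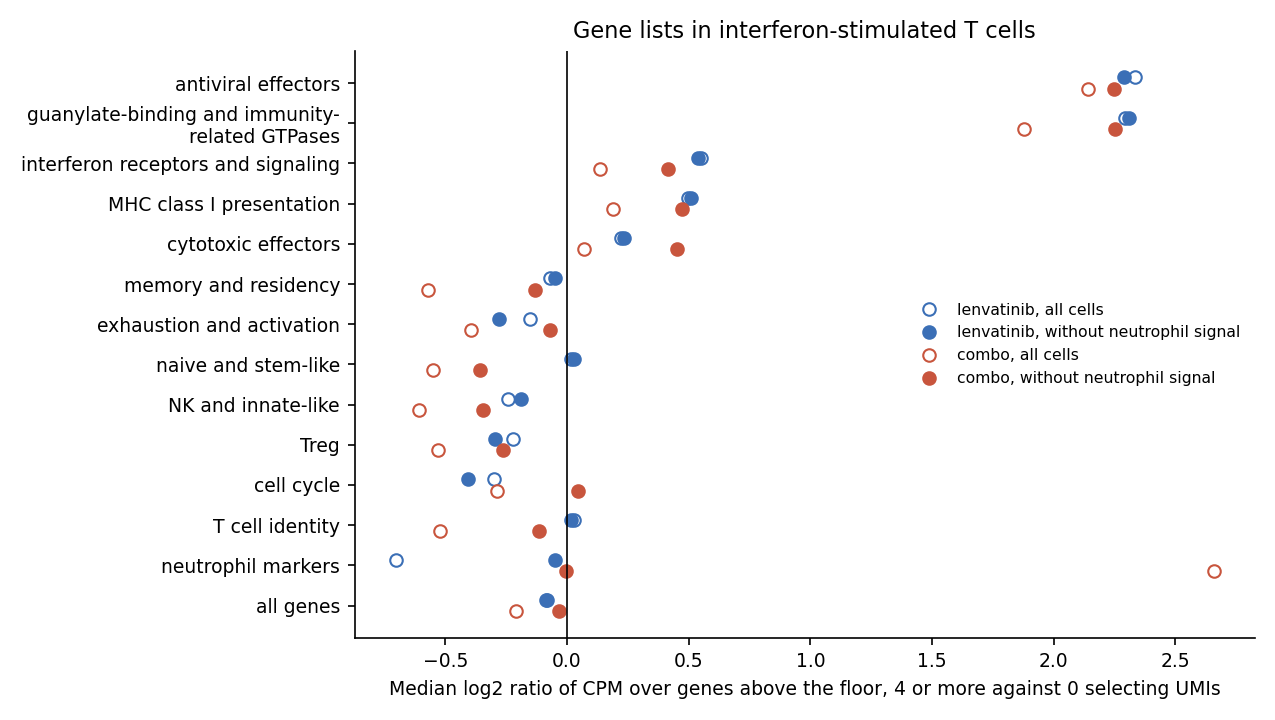
Median log2 ratio of CPM between T cells with 4 or more and with 0 selecting UMIs, for gene lists over genes with a mean of at least 25 CPM, in lenvatinib (blue) and combo (red), with all cells (open) and without neutrophil signal (filled). Antiviral effectors and GTPases lie above 1.8 in both libraries, most T-cell lists lie within 0.6 of 0, and neutrophil markers under combo move from 2.66 to about 0 when cells with neutrophil signal are left out.

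T-cell identity genes were near even, although all cells compared had been selected on Cd3d, Cd3e and Cd3g, so these 3 genes show nothing on their own. Over the 12 genes of the list none was past 2-fold, with a median log2 ratio of 0.03 under lenvatinib and -0.52 under combo, or -0.12 under combo without neutrophil signal. Cd3e was at 355 and 364 CPM under lenvatinib and at 265 and 392 CPM under combo (352 and 410 CPM without neutrophil signal). Cd8a, the CD8 coreceptor of cytotoxic T cells, was at 277 and 223 CPM under lenvatinib, and at 346 and 254 CPM under combo without neutrophil signal.

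CD8 T cells were the largest subset under lenvatinib and, with the limit of 4 selecting UMIs, under combo. With each cell thinned to 2000 UMIs, cells with Cd8a or Cd8b1 were 52.4% (47.2 to 57.5) of interferon-stimulated T cells under lenvatinib against 44.1% of T cells with 0 selecting UMIs. Under combo they were 50.3% (42.8 to 57.8) against 46.3%, and 58.0% (49.5 to 66.2) against 47.2% without neutrophil signal. T cells with a UMI of neither coreceptor, which at this depth does not show that the coreceptor was absent, were 41.0% and 43.1% of the interferon-stimulated cells. With a limit of 8 selecting UMIs under combo, they were 48.3% and CD8 T cells 44.9% of 89 cells. Conventional CD4 T cells were 4.26% and 6.08% with the limit of 4. Regulatory T cells were few. They numbered 8 of 376 (2.13%) in the lenvatinib library and 0 of 181 (0 to 2.02%) in the combo library, against 4.01% and 0.757% of T cells with 0 selecting UMIs. Without thinning, 14 of 388 (3.61%) and 2 of 54 (3.70%) regulatory T cells were interferon-stimulated. Read without thinning, 6.25% of CD8 T cells in the lenvatinib library (257 of 4110) and 3.90% in the combo library (115 of 2946) were interferon-stimulated.

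Of 3 gamma-delta T-cell genes above 25 CPM, only Trdc was 2-fold lower in each library. Trdc, the delta chain constant region, was at 42.1 CPM (35.2 to 49.9) and 92.8 CPM (89.8 to 95.8) under lenvatinib and at 25.1 CPM (18.3 to 33.6) and 84.1 CPM (80.8 to 87.5) under combo. Il17a, a cytokine of some gamma-delta T cells that lay below that level, was at 3.83 CPM (12 UMIs in 3 cells) and 38.2 CPM under lenvatinib and at 1.68 CPM (3 UMIs in 3 cells) and 43.3 CPM under combo. Among all genes above 25 CPM, Trdc had the lowest ratio that both libraries shared, at -1.13 and -1.73 on the log2 scale, and without neutrophil signal it was at -1.80 under combo, and Il17a at -4.33. Of 5 regulatory T-cell genes above 25 CPM, none was 2-fold lower under lenvatinib and 1, Tnfrsf4, under combo. Tnfrsf4 (OX40) was at 44.0 and 72.3 CPM under lenvatinib and at 23.5 and 59.9 CPM under combo, and Foxp3, the defining factor, at 16.3 and 24.7 CPM and at 1.68 and 5.08 CPM. Their combo log2 ratios without neutrophil signal were -1.08 and -1.29.

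Naive and stem-like genes stood differently in each library. Under lenvatinib none of 12 genes was past 2-fold and the median log2 ratio was 0.02. Under combo 4 of 12 were at least 2-fold lower, with a median of -0.55, and without neutrophil signal 2 of 12, with a median of -0.36. Lef1, a factor of naive T cells, was at 104 CPM (92.7 to 116) and 115 CPM under lenvatinib, at 43.0 CPM (34.0 to 53.8) and 113 CPM under combo, and at 59.7 CPM (46.2 to 75.8) and 119 CPM under combo without neutrophil signal. Tcf7, which encodes TCF1, the factor of stem-like T cells, was at 256 and 273 CPM under lenvatinib and at 127 and 206 CPM under combo without neutrophil signal. Slamf6 and the lymph node egress receptor S1pr1 had log2 ratios of 0.23 and -0.45 under lenvatinib and of -1.14 and -1.05 under combo without neutrophil signal. The difference between the libraries was not tested.

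Cytotoxic genes stood differently with and without the cells with neutrophil signal. The list of 14 genes had a median log2 ratio of 0.22 under lenvatinib and 0.07 under combo, and of 0.23 and 0.45 without neutrophil signal. Gzmb (granzyme B) was at 471 CPM (448 to 496) and 318 CPM under lenvatinib, and at 1086 CPM (1038 to 1135) and 654 CPM under combo, or 1578 and 683 CPM without neutrophil signal. Gzma (granzyme A) was at 524 and 644 CPM under lenvatinib and at 879 and 420 CPM under combo without neutrophil signal. The chemokine Ccl4 was at 710 and 501 CPM under lenvatinib and at 1360 and 554 CPM under combo without neutrophil signal. Cd69, an activation marker that interferon also induces, was at 788 and 452 CPM under lenvatinib and at 564 and 428 CPM under combo, and Ly6a (Sca-1) at 471 and 142 CPM and at 371 and 187 CPM. Without neutrophil signal the combo levels were 743 and 445 CPM for Cd69 and 534 and 195 CPM for Ly6a.

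Exhaustion and activation genes were close to even. The list had a median log2 ratio of -0.15 under lenvatinib and -0.39 under combo over 5 genes above 25 CPM, and of -0.28 and -0.07 without neutrophil signal, and no gene passed 2-fold. Tox, the factor of exhausted T cells, was at 153 and 155 CPM under lenvatinib and at 64.8 and 99.5 CPM under combo, or 85.5 and 104 CPM without neutrophil signal. Pdcd1, which encodes PD-1, was at 23.3 and 24.3 CPM under lenvatinib and at 65.9 and 43.1 CPM under combo without neutrophil signal.

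None of the 6 listed cell cycle genes above 25 CPM was past 2-fold in either library. Mki67, the proliferation marker Ki-67, was at 115 CPM (104 to 128) and 203 CPM under lenvatinib and at 24.0 CPM (17.4 to 32.4) and 47.0 CPM under combo. Over all genes above 25 CPM, Mki67, Smc2, Racgap1 and Hist1h2ae were among the 10 lowest ratios that both libraries shared. Without neutrophil signal only Racgap1 of these was among them. The median log2 ratio over 6 cell cycle genes was -0.30 under lenvatinib and -0.29 under combo, and over 7 genes without neutrophil signal -0.41 and 0.05, where Mki67 was at -0.53 under combo. Among genes of the CDK4/6 pathway, Ccnd2 (cyclin D2) was at 686 and 442 CPM under lenvatinib and at 631 and 419 CPM under combo without neutrophil signal. Cdk6 was at 105 and 128 CPM and at 121 and 108 CPM, and Cdk4 at 65.1 and 75.6 CPM and at 90.8 and 77.9 CPM in the same cells. None of 9 genes of this list passed 2-fold in either library with all cells, and Rbl1 (p107) passed it under combo without neutrophil signal, at 1.37 on the log2 scale.

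The antiviral program was graded by the number of selecting UMIs. Under lenvatinib the 59 antiviral effectors summed to 4927 CPM in cells with 0 selecting UMIs, 6545 with 1, 9405 with 2 or 3, 12747 with 4 to 7, 16166 with 8 to 15 and 20547 with 16 or more. Under combo without neutrophil signal the same steps were at 3861, 5040, 7351, 11554, 14430 and 13615 CPM, the last over 29 cells. Deeper cells reach more selecting UMIs, and the median depth was 6182 UMIs in the lowest and 8527 in the highest step under lenvatinib. Cxcl10 spanned a wider range, from 85.8 to 2410 CPM at 16 or more UMIs under lenvatinib and from 84.4 to 3442 CPM under combo without neutrophil signal. T-cell identity genes stayed between 4441 and 4713 CPM under lenvatinib. Under combo without neutrophil signal they were at 5410 CPM with 0 and at 3452 CPM with 16 or more, where neutrophil markers summed to 1734 CPM and monocyte and macrophage markers to 200 CPM, against 1731 and 162 CPM with 0.

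**Figure D4:**
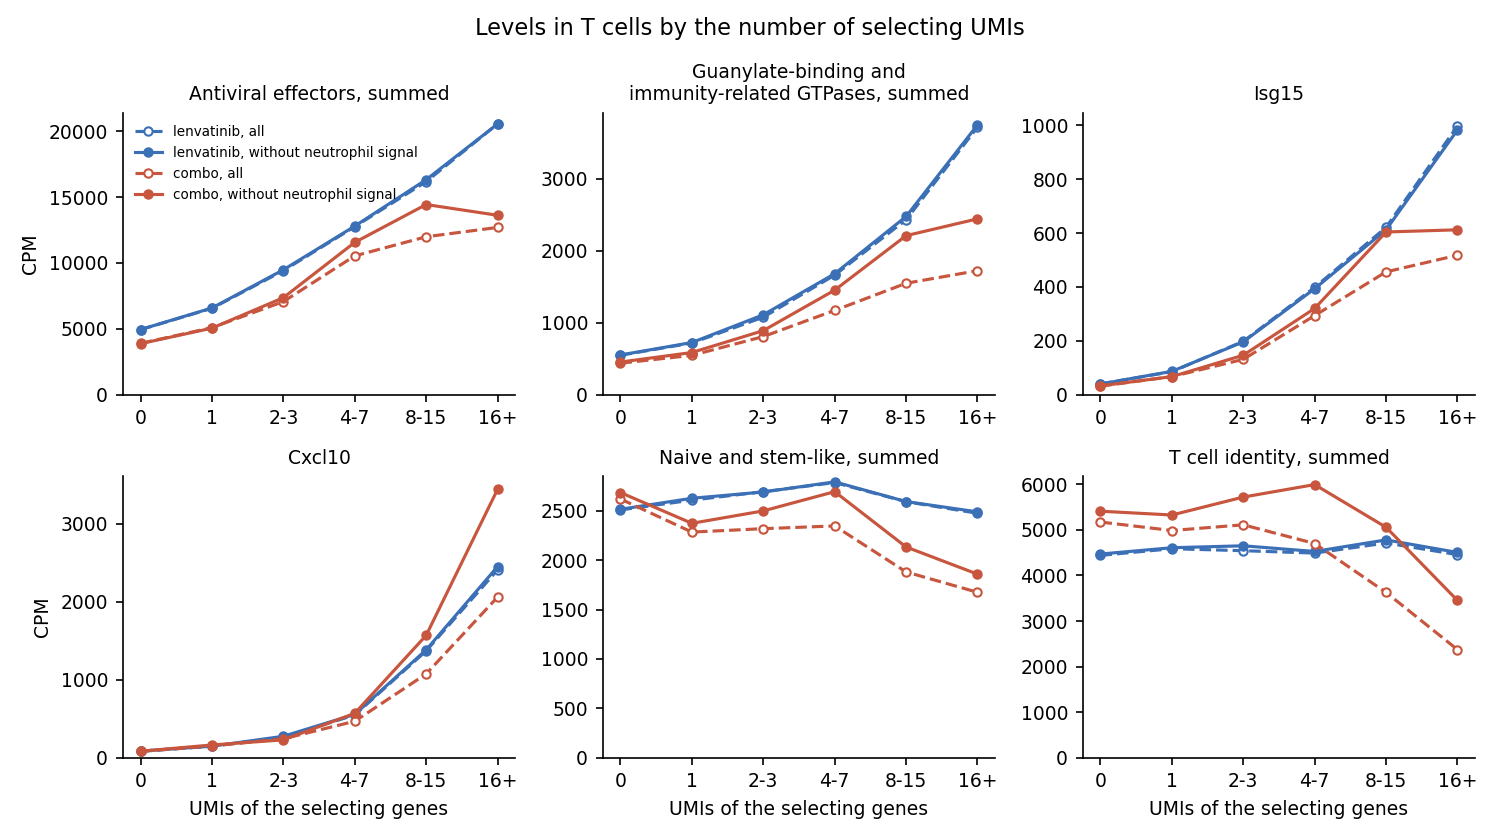
Summed CPM of 4 gene lists and CPM of Isg15 and Cxcl10 in T cells grouped by the number of selecting UMIs, in lenvatinib (blue) and combo (red), with all cells (open, dashed) and without neutrophil signal (filled, solid). Antiviral effectors climb from 4927 to 20547 CPM under lenvatinib, and T-cell identity genes drop in the highest combo groups.

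Interferon-stimulated cells made up a larger share of T cells under lenvatinib. They were 380 of 7085 (5.36%, 4.85 to 5.91) under lenvatinib and 182 of 5204 (3.50%, 3.01 to 4.03) under combo, a ratio of combo to lenvatinib of 0.652 (0.510 to 0.831 when the ends of both intervals are set against each other). Without neutrophil signal they were 5.28% and 2.89%, a ratio of 0.548 (0.419 to 0.712). With each cell thinned to 2000 UMIs before the selection they were 84 of 5342 (1.57%) and 42 of 4449 (0.944%), a ratio of 0.600 (0.351 to 1.01). With a limit of 8 selecting UMIs they were 2.37% and 1.71%, a ratio of 0.721 (0.500 to 1.03). The first pair of ranges lay below 1, and the thinned range and that with a limit of 8 reached it.

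The same order was seen with genes that were not used for selection. In T cells thinned to 2000 UMIs an Isg15 UMI was found in 12.5% (11.7 to 13.3) under lenvatinib and 8.95% (8.18 to 9.77) under combo, and a Usp18 UMI in 4.63% and 2.21%. In B cells, where free RNA would also appear, the shares were 1.96% and 3.03% for Isg15 and 1.09% and 1.96% for Usp18, at median depths of 3292 and 3524.5 UMIs against 6287 and 5662.5 in T cells. The intervals of the Usp18 share under combo overlapped between T cells (1.83 to 2.66) and B cells (0.983 to 3.48), so this share is not told apart from that of B cells at 2000 UMIs.

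Cells with at least 4 selecting UMIs were found among other immune cells too. Natural killer cells held 57 of them among 1857 cells in the lenvatinib library (3.07%, 2.33 to 3.96) and 4 among 824 in the combo library (0.49%, 0.13 to 1.24). Thinned to 2000 UMIs, natural killer cells with any selecting UMI were 6.49% and 2.70%, T cells 11.3% and 8.48%, and B cells 4.14% and 4.28%. Without thinning, neutrophils held them most often, in 56 of 434 (12.9%) under lenvatinib and 118 of 965 (12.2%) under combo. Monocytes and macrophages held them in 15 of 223 (6.73%) and 82 of 849 (9.66%). The neutrophils had median depths of 2491 and 4519 UMIs. Thinned to 2000 UMIs, neutrophils with any selecting UMI were 30.0% (25.1 to 35.3) under lenvatinib and 20.3% (17.8 to 23.1) under combo. Monocytes and macrophages were 14.6% and 14.9% by that measure. The makeup of the selecting UMIs differed: in cells with at least 4 of them Rsad2 gave 24.9% and 31.7% in T cells and 64.3% and 52.7% in neutrophils. Combo T cells with neutrophil signal lay between, at 41.9%, and those without it at 27.2%.

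**Figure D5:**
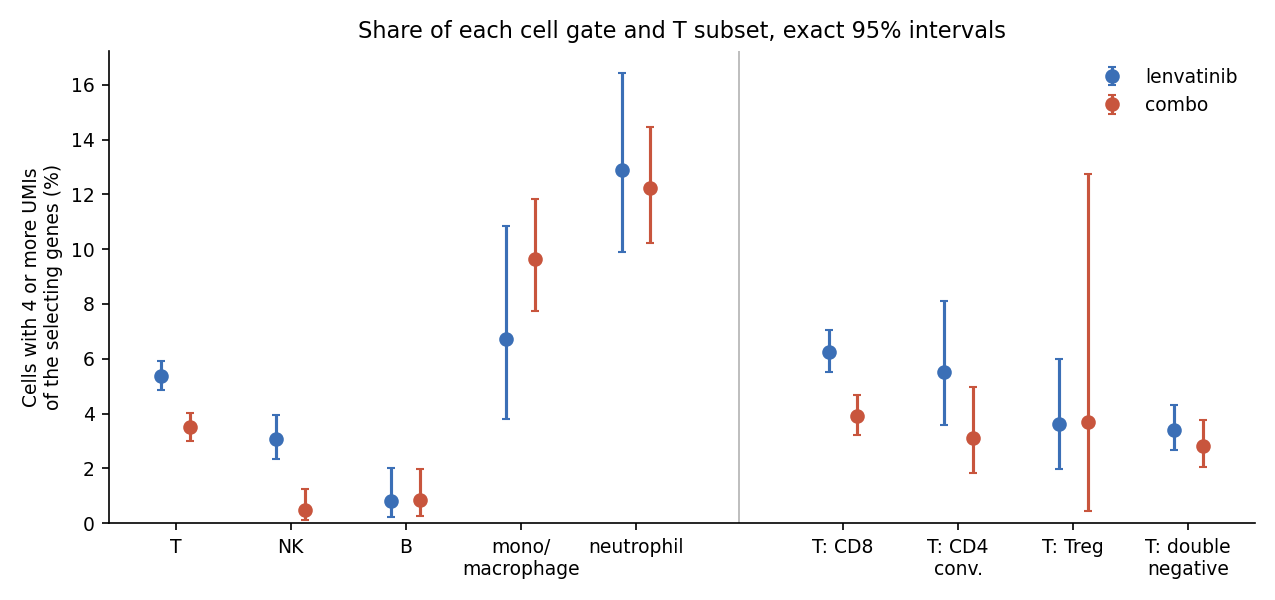
Percent of cells with 4 or more selecting UMIs in T cells and other gated immune cells (left of the line) and in T-cell subsets (right), for lenvatinib (blue) and combo (red); bars are exact binomial 95% intervals, without thinning. The T, natural killer and CD8 shares lie lower under combo, at 3.50%, 0.49% and 3.90%, and the intervals of the other groups overlap between the libraries.

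Between the libraries, antiviral levels were somewhat lower under combo in both kinds of T cell, and few antiviral genes passed 2-fold. In interferon-stimulated T cells the median log2 ratio of combo to lenvatinib over 54 antiviral effectors with at least 25 CPM was -0.55. Of these, 1 gene was 2-fold higher and 3 were lower. Over all 4612 genes the median was -0.29, and 4.88% were higher and 5.55% lower, so the share of lower genes was near that over all genes. Without neutrophil signal the list's median was -0.31, with 1 gene higher and 1 lower, against -0.11 over 4680 genes, of which 1.20% were higher and 1.71% lower. T cells with 0 selecting UMIs had a median of -0.42 over 33 antiviral genes with all cells and -0.34 over 34 genes without neutrophil signal, and the difference between both kinds of T cell was not tested. The gene that was higher, Ifitm3, an antiviral membrane protein, was at 87.7 CPM under lenvatinib and at 1000 CPM under combo with all cells. Without neutrophil signal it was at 192 CPM under combo, and its log2 ratio with both libraries so restricted was 1.50. In T cells with 0 selecting UMIs, 1 antiviral gene was also 2-fold higher, at 1.63 without neutrophil signal.

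Ifi44 and Iigp1 were the interferon-induced genes furthest below their lenvatinib level. Ifi44, an antiviral effector of the list above, was at 45.9 CPM (38.7 to 54.1) under lenvatinib, with a UMI in 49 of 380 cells, and at 8.94 CPM (5.11 to 14.5) under combo, with a UMI in 5 of 182. Its log2 ratio of combo to lenvatinib without neutrophil signal was -2.31 in interferon-stimulated T cells and -1.59 in T cells with 0 selecting UMIs. For Iigp1 these ratios were -1.39 (-1.80 to -1.01) and -0.30. Slfn5 was at 384 CPM under lenvatinib and 218 CPM under combo without neutrophil signal, a log2 ratio of -0.81, against -0.34 in T cells with 0. The intervals of Ifit2 and Irf7 included 0, with log2 ratios of 0.05 (-0.20 to 0.30) and 0.19 (-0.04 to 0.41).

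With all cells, the 10 genes with the largest ratios of combo to lenvatinib were led by the stefin genes Cstdc5, Stfa2 and Stfa3 and included the neutrophil genes Retnlg, Cd177 and Mmp8. Without neutrophil signal the largest ratios still included Retnlg, at 107 CPM under combo and a log2 ratio of 4.31, and Cxcl2, a chemokine that attracts neutrophils, at 32.8 and 479 CPM. T cells with 0 selecting UMIs had log2 ratios of 3.90 and 1.74 for these genes. Granzyme C (Gzmc) was at 135 CPM under combo without neutrophil signal, a log2 ratio of 3.54, and its UMIs came from 9 cells. Among the lowest ratios, those of hemoglobin genes came from 2 lenvatinib cells with at least 100 hemoglobin UMIs. Mki67 had a log2 ratio of -1.83 (-2.39 to -1.36) without neutrophil signal, against -2.11 in T cells with 0 selecting UMIs.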

How the data were processed

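Single-cell 3' libraries (10x chemistry) of sorted live CD45+ cells were analysed, 1 for lenvatinib and 1 for combo. Per the file headers, the deposited values are whole UMI counts for each gene in each barcode, which the authors made with Cell Ranger (version 5.0.1 in the submitters' processing notes, 6.0.1 in the matrix headers) on mm10, and not normalized. Every deposited barcode held at least 500 UMIs. Here, cells with over 6000 genes or over 25% mitochondrial UMIs were removed (308 under lenvatinib and 376 under combo). Scrublet (scanpy 1.11.5, expected doublet rate 6%) was run on each library, and the cells it called were kept.

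The members and gene lists were chosen with earlier results of these data known. UMIs were summed per class and library and scaled to CPM over all genes in Python 3.11.15 with numpy 2.4.6 and pandas 2.3.3. Log2 ratios add 0.5 counts to each sum and compare CPM, so a high share of one gene lowers the others. A gene was called at a 2-fold ratio when its mean CPM of both classes was at least 25 in each library, or in the 2 groups compared. Intervals are exact Poisson or Clopper-Pearson 95% intervals (scipy 1.17.1). The range of a ratio of shares sets their ends against each other. The interval of a log2 ratio of 1 gene is an exact conditional interval of the ratio of 2 Poisson rates. PCR copies were already collapsed by UMI, and intervals cover counting error only. To compare shares of cells with a UMI, UMIs were drawn without replacement down to 2000 per cell. T cells below that depth were dropped, 390 under lenvatinib and 144 under combo. A thinned share of members applied both selections after thinning. T-cell subsets were called from Cd8a and Cd8b1, Cd4 and Foxp3 UMIs. Other immune cells were gated on Ncr1 and Klrb1c (natural killer), Cd79a, Cd79b and Ms4a1 (B), Csf3r (neutrophil) or Csf1r and Lyz2 (monocyte and macrophage), with no Cd3 UMI, and cells in more than 1 gate were left out.

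Genes named were drawn from the selecting and listed genes and from ranked ratios, and not every listed or ranked gene is named. Ranked were the 10 highest and 10 lowest ratios shared by both libraries (by the smaller of both absolute log2 values). The 10 highest and lowest ratios of combo to lenvatinib in members were ranked too, all among genes with at least 25 CPM. Of the listed genes, 6 (Mx1, Mx2, Mnda, Sting1, Gbp11 and Cxcl11) had no entry under these symbols and were not analysed here, and STING was taken as Tmem173. The count over the list of receptor and signaling genes is not reported here. Promoter sequences came from RefSeq (GRCm38.p6), and Ifit3 and Ifit3b transcripts were aligned with Biopython 1.88. The steps were tested on simulated data. Alternatives covered the cell filter, doublets, the Cd3 and selecting limits, thinning, the comparison cells, the CPM total and floor, CD8 cells alone and, added after the data were seen, cells with neutrophil signal and a floor of 10 CPM over all T cells.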

Additional observations from a re-analysis of the deposited data

Results flagged for a closer look

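The median ratio of neutrophil markers and the ratio of Lyz2 had opposite signs in the libraries. Cells with neutrophil signal were more frequent among interferon-stimulated T cells in both. Their share was 2.89% against 1.10% of T cells with 0 selecting UMIs under lenvatinib, and 20.9% against 3.37% under combo. Over the neutrophil markers above 25 CPM, the median log2 ratio of interferon-stimulated T cells to T cells with 0 selecting UMIs was -0.70 under lenvatinib and 2.66 under combo. Lyz2, the only monocyte and macrophage marker above 25 CPM, which neutrophils also express, had log2 ratios of -0.14 and 1.99. Every neutrophil marker above 25 CPM was higher under combo, whereas 2 of 5 were 2-fold lower under lenvatinib. The difference between the libraries was not tested, since each treatment has 1 library. Without cells with neutrophil signal, the medians were -0.05 and -0.00 for neutrophil markers.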

How the results depend on the processing

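Of 78 alternative values, 66 stayed within the counting interval of the reported value, 11 moved beyond it and 1 reversed. The reversal was the exhaustion and activation list under combo, whose median log2 ratio was 0.0576 with levels thinned to 2000 UMIs and -0.0686 without neutrophil signal, against -0.39, and under lenvatinib it was 0.0472 with CD8 cells alone, so no direction is read from this list. The antiviral list moved to 2.13 against all other T cells and to 2.65 with a limit of 8 selecting UMIs under lenvatinib, and to 2.33 with thinned levels under combo. Its ratio of combo to lenvatinib was -0.31 without neutrophil signal. The naive and stem-like list under combo was -0.34 in CD8 cells alone and -1.11 with a limit of 8. The CD8 share of interferon-stimulated T cells was 67.6% under lenvatinib and 63.2% under combo without thinning, and 58.0% under combo without neutrophil signal. The cause of these moves was not tested. No paired analysis was possible because each group has 1 library, and no replicate could be left out. Depth limits what a cell shows: at 2000 UMIs most interferon-stimulated cells fall under the limit of 4 selecting UMIs.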

Other observations

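Immediate early and heat shock genes were close to even in the interferon-stimulated T cells. Of 12 such genes above 25 CPM, 1 was at least 2-fold higher under lenvatinib and none under combo, with median log2 ratios of 0.09 and -0.07. The gene past 2-fold was Hspa1a, an inducible heat shock chaperone, at 51.0 and 24.7 CPM under lenvatinib, where 44 of 380 cells had a UMI, and at 30.7 and 32.2 CPM under combo. Under lenvatinib it had reached 25 CPM only through the interferon-stimulated cells. Memory and residency genes had medians of -0.07 and -0.57 over 7 genes, and of -0.05 and -0.13 without neutrophil signal, with no gene past 2-fold.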
